A study of Homo sapiens with 8 samples.

Results

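TDRD5, TDRD6 and RNF17 encode Tudor-domain proteins of the germ line, and they were examined together across 3 comparisons made in K-562 cells, an established human erythroleukaemia line. They were found by gene symbol in the authors' deposited gene tables and are 3 of the 1221 genes that at least 1 table lists. All 3 genes were chosen because earlier results of these data showed them as higher, so their values describe the choice and test nothing. The 8 libraries were made from ribosomal RNA-depleted total RNA and form 4 groups of 2. The control group is parental wild-type cells with a negative guide RNA. The other groups are TASOR KO cells, TASOR KO cells expressing a FLAG-TASOR transgene, and wild-type cells expressing a FLAG-TASOR2 transgene. No guide is named for the FLAG-TASOR2 cells, so guide treatment and transgene cannot be told apart there. Per the labels' protocols, knockouts were grown as single-cell colonies after Cas9 plasmid transfection, and cells received lentivirus carrying a FLAG-tagged transgene or an empty puromycin vector. The sources used here do not say how many independent clones stand behind the 2 libraries of a group. A p-value therefore speaks only for these libraries.

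Tudor domains are folds that bind methylated arginine or lysine on partner proteins. In male germ cells, several Tudor proteins bind PIWI proteins, which carry piRNAs, the small RNAs that silence transposons. TDRD5 and TDRD6 are components of the germ granules and the chromatoid body of spermatids. RNF17, also called TDRD4, has a RING finger beside its Tudor domains and is a germ granule protein known to restrain piRNA production. TASOR belongs to the human silencing hub, HUSH, whose targets include LINE-1 elements, and TASOR2 is a paralog of TASOR.

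The 3 genes lie on different chromosomes of GRCh38, the assembly also called hg38. TDRD5 (ENSG00000162782) occupies chromosome 1 from 179591613 to 179691272, TDRD6 (ENSG00000180113) chromosome 6 from 46687875 to 46704319, and RNF17 (ENSG00000132972) chromosome 13 from 24764152 to 24879921, all on the plus strand. The 250 bases before the RefSeq start of each gene (GRCh38.p14, plus strand) are printed 5′ to 3′ because the genes were listed together in the knockout. Capitals mark CG dinucleotides, the sites of DNA methylation. The windows are chr1:179591363-179591612 for TDRD5, chr6:46687635-46687884 for TDRD6 and chr13:24763919-24764168 for RNF17.
TDRD5: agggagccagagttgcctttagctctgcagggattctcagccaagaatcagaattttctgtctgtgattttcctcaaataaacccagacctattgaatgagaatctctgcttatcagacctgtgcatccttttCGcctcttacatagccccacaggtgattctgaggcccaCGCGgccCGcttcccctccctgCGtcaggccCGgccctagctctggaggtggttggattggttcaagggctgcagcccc
TDRD6: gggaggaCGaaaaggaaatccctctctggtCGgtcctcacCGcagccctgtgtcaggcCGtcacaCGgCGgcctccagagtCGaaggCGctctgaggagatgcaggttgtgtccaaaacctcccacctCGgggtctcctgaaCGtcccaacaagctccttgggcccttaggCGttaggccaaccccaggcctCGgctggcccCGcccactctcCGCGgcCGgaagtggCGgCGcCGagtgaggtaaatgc
RNF17: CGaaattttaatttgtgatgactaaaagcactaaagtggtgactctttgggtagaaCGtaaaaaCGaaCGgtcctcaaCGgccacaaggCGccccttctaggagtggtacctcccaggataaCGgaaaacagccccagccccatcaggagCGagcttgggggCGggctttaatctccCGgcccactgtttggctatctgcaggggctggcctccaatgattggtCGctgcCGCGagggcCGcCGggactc

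The upstream windows differed in CG content. TDRD5 held 6 CG dinucleotides there, TDRD6 held 19 and RNF17 held 15, against a median of 11 over 35116 RefSeq promoter windows of the same length. These counts stand above 38.1%, 65.4% and 57.1% of those windows. TDRD5 has a further RefSeq start, whose upstream window (179591582 to 179591831) held 22 CG. Over the whole window of 300 bases, which adds 50 bases after the start, the counts were 13 for the first TDRD5 start, 26 for TDRD6 and 20 for RNF17. On both strands of that window, 4 motifs of germline gene control were searched. TCCCGC, an E2F6-type motif, was in none of the members' windows and in 26.9% of all. TGACGTCA, the cyclic AMP response element, was also in none, and in 1.85% of all. AACCGTTA, a MYB-type motif, was in none, and in 0.159% of all. CACGTG, an E-box, occurred 1 time, in the window of the further TDRD5 start, and in 7.26% of all windows.

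The genes are built differently. In the longest GENCODE 29 transcript, TDRD6 has 3 exons, and its exon 1 (46687875 to 46694174) is 6300 bases long. That exon carries 97.5% of the TDRD6 coding sequence and is longer than the longest exon of 95.1% of 19969 protein-coding genes. TDRD5 has 18 exons over 99.7 kb, with a longest exon of 568 bases. RNF17 has 36 exons over 116 kb, with a longest exon of 305 bases. The longest exons of TDRD5 and RNF17 exceed those of 14.1% and 4.16% of protein-coding genes, where the median is 1670 bases. A longest exon of at least 6000 bases was found in 1119 of the 19969 protein-coding genes, and in 10 of the 99 that were listed as higher in the knockout, TDRD6 among them. The median over those 99 was 2436 bases.

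**Figure D1:**
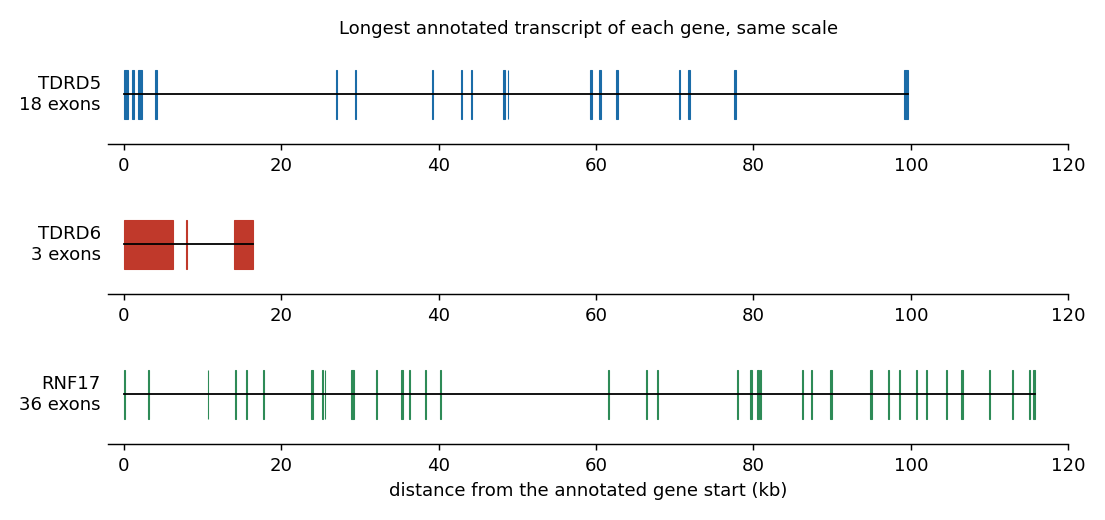
Exons (boxes) and introns (line) of the longest GENCODE 29 transcript of each gene, by distance in kb from the annotated gene start. TDRD6 has 3 exons with one block of 6300 bases at its start, whereas TDRD5 has 18 and RNF17 has 36 short exons.

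Each table gives, per gene, a log2 fold change over the wild-type controls, a log2 mean in CPM (counts scaled to library size), and an F score with its p before and after adjustment. A gene entered a table where its unadjusted p was below 0.05, its log2 mean CPM above 1 and its log2 fold change beyond 1 in either direction. Values of single libraries are not in the tables, and depth is unknown. The SE given here is approximate (the size of the log2 fold change over the root of F), and the 95% interval uses the degrees of freedom recovered from F and p. No member had an adjusted p below 0.05 in any table (0 of 3 in each). At the unadjusted p below 0.05 of the authors' test, whose columns are those of an edgeR F-test, 3, 1 and 2 members were listed in the knockout, FLAG-TASOR and FLAG-TASOR2 tables. The authors' tables list 1.92% of 13992 genes tested for the knockout (0.979% as higher), at most 1.87% of at least 13957 for FLAG-TASOR (0.609% as higher), and 6.31% of 14001 for FLAG-TASOR2 (2.56% as higher). Genes with an adjusted p below 0.05 made up 0.00715%, 0% and 0.0357%. Because the members were chosen on these contrasts, nothing is read from their count.

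TASOR RNA, the targeted transcript, was listed in the authors' deposited table for the knockout at -1.08 on the log2 scale (approximate SE 0.23, adjusted p 1.000, edgeR-type F-test). TASOR was not listed for the FLAG-TASOR cells. TASOR2 was listed at 2.26 (approximate SE 0.27, adjusted p 0.125, edgeR-type F-test) for the FLAG-TASOR2 cells in the authors' deposited table.

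TDRD6 had the highest fold change of the 3 genes. In the authors' deposited table for the TASOR knockout its log2 fold change was 8.63 (approximate SE 1.19, interval 5.65 to 11.62), a fold of 397. Its unadjusted p was 0.000566 and its adjusted p 0.839 (edgeR-type F-test). Of the 268 genes in the authors' deposited table, 9 were taken to have a group at 0 counts and left out of this ranking. Among the other 259, TDRD6 ranked 1 by log2 fold change. A gene without a symbol, left out on that reading, had a higher deposited value, 9.94. By F score, 53.0, TDRD6 ranked 8 of 268. With FLAG-TASOR2 the authors' deposited table gave TDRD6 a log2 fold change of 6.51 (approximate SE 0.90, interval 4.32 to 8.70), a fold of 91.2. The adjusted p was 0.125 (edgeR-type F-test), and TDRD6 ranked 3 of 870 by log2 fold change in the authors' deposited table. It was not listed for the knockout with FLAG-TASOR.

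TDRD5 was the only member listed in every comparison. In the authors' deposited table for the knockout its log2 fold change was 4.87 (approximate SE 0.70, interval 3.11 to 6.63), a fold of 29.3, with an adjusted p of 0.839 (edgeR-type F-test). With FLAG-TASOR in the knockout, TDRD5 stood at 3.41 in the authors' deposited table (approximate SE 0.82, interval 1.33 to 5.48, adjusted p 0.999, edgeR-type F-test), a fold of 10.6. With FLAG-TASOR2 in wild-type cells, it stood at 2.64 in the authors' deposited table (approximate SE 0.77, interval 0.76 to 4.51, adjusted p 0.269, edgeR-type F-test), a fold of 6.21. Genes taken to have a group without counts were left out of its ranks, and in each comparison some of them had higher deposited values. Among the other genes of the authors' deposited tables, TDRD5 ranked 4 of 259, 5 of 253 and 103 of 870 by log2 fold change. Its value was therefore among the highest of the tables for both knockout groups and well inside the range of the FLAG-TASOR2 table. The 3 intervals overlap. The comparisons share their controls and no library values are at hand, so the differences between them were not tested.

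RNF17 was listed in the knockout only. In the authors' deposited table its log2 fold change was 3.83 (approximate SE 1.07, interval 1.14 to 6.52), a fold of 14.2, with an unadjusted p of 0.0140 and an adjusted p of 1.000 (edgeR-type F-test). It ranked 19 of 259 by log2 fold change, with genes taken to have a group at 0 counts left out. By F score it ranked 121 of 268 in the authors' deposited table. RNF17 thus had a smaller F score than TDRD5 and TDRD6, 12.8 against 48.6 and 53.0 in the authors' deposited table.

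**Figure D2:**
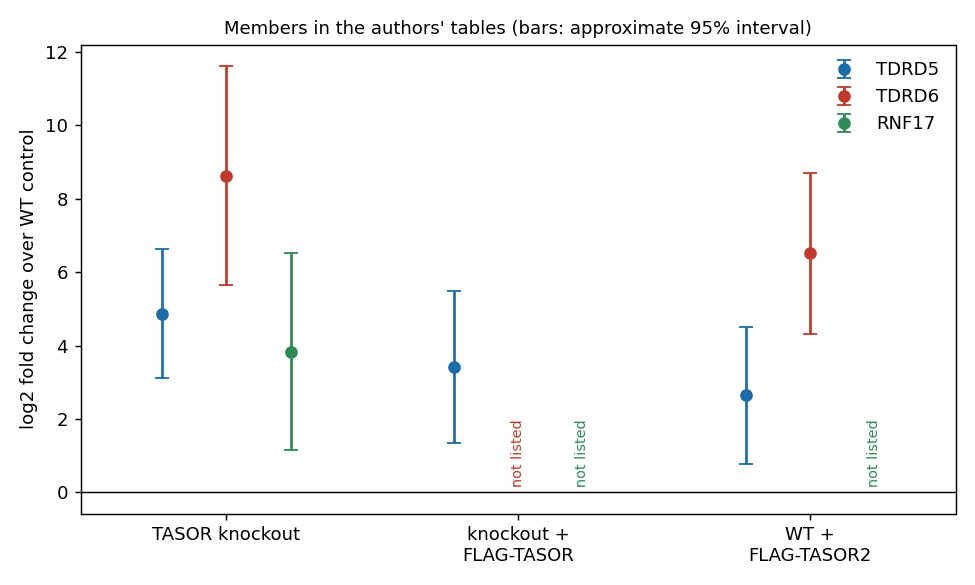
Log2 fold change over the wild-type controls for TDRD5, TDRD6 and RNF17 in each comparison, with approximate 95% intervals as bars. All 6 listed values lie above 0, from 2.64 for TDRD5 with FLAG-TASOR2 to 8.63 for TDRD6 in the knockout, and the other 3 are marked as not listed.

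**Figure D3:**
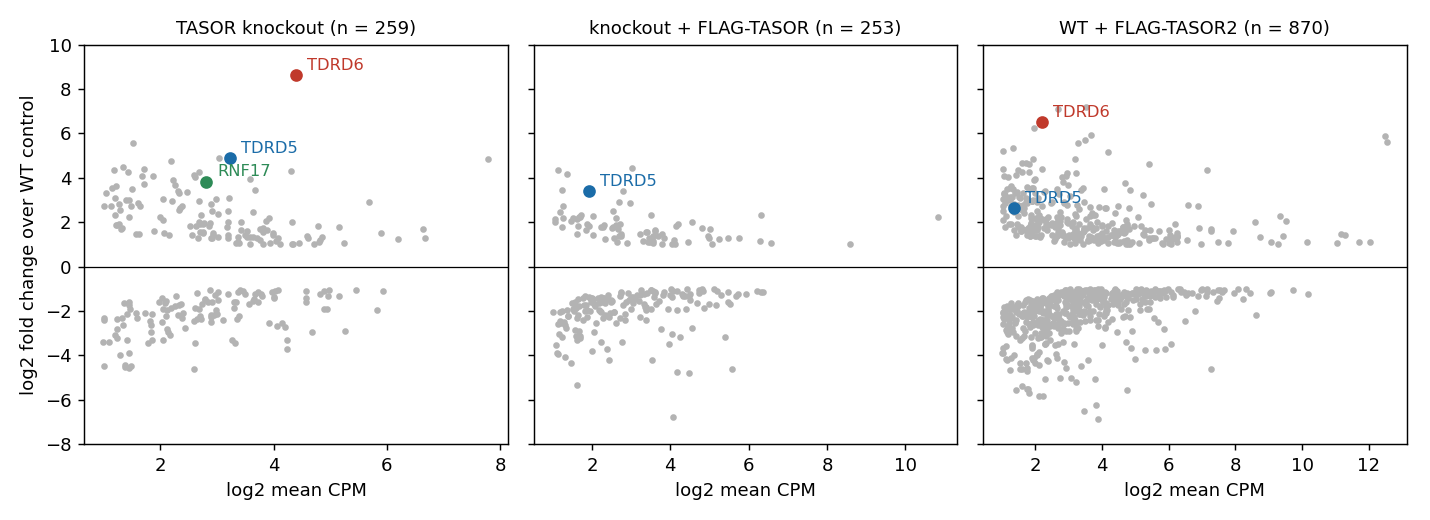
Log2 fold change against log2 mean CPM for the listed genes with a fold in each table (259, 253 and 870 genes, grey), with members in colour. In the knockout panel TDRD6 lies above all other points, at 8.63 and a log2 mean of 4.40, while TDRD5 in the FLAG-TASOR2 panel lies within the grey points near the lower end of the mean.

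The mean and the fold change of a gene together imply a level in each group, if the mean covers the 4 libraries of the comparison with equal weight. For TDRD5 the control level was then 0.621, 0.656 and 0.713 CPM by the knockout, FLAG-TASOR and FLAG-TASOR2 tables, a range of 0.20 on the log2 scale. For TDRD6 it was 0.106 and 0.101 CPM. Since these tables share their controls, the values should coincide. Genes listed in a pair of tables were compared in the same way, without those taken to have a group at 0 counts (58, 99 and 59 genes). Their control levels differed by a median log2 of 0.05, 0.11 and 0.09, with SDs of 0.17, 0.24 and 0.19. The control levels of TDRD5 and TDRD6 thus differed between tables by no more than is usual for listed genes. They carry no replicate error.

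In controls, TDRD6 was at the lowest level of the 3 genes and in the knockout at the highest in CPM. The implied TDRD6 level was 42.2 CPM in the knockout and 9.18 CPM with FLAG-TASOR2, a ratio of 4.60. TDRD5 was at 18.2 CPM in the knockout, 6.96 CPM in the knockout with FLAG-TASOR and 4.43 CPM with FLAG-TASOR2. The knockout level of TDRD5 was 2.61 times that with FLAG-TASOR and 4.11 times that with FLAG-TASOR2. RNF17 was at 13.1 CPM in the knockout against 0.924 CPM in controls. These differences between altered groups are point values and could not be tested, and that controls are lowest follows from how the genes were chosen.

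**Figure D4:**
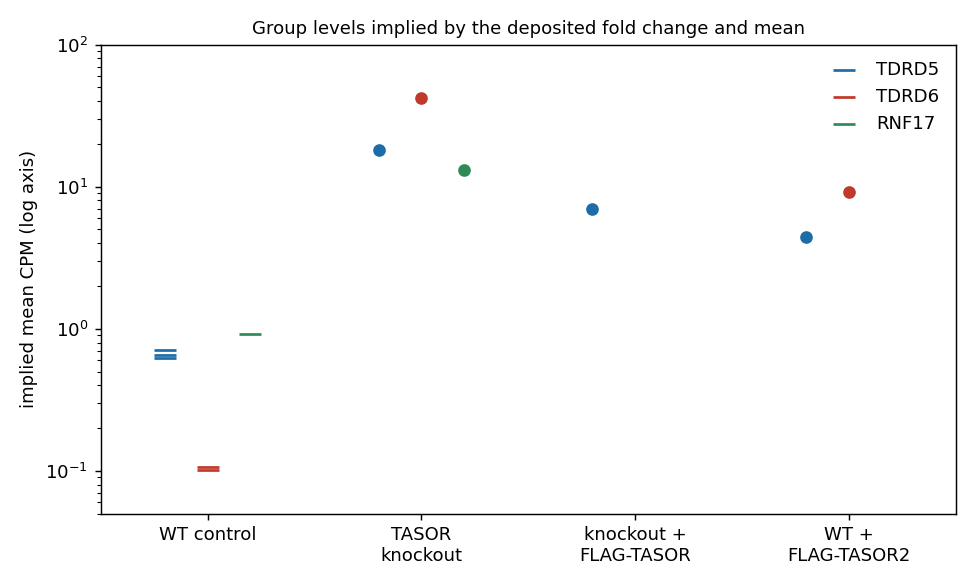
Implied mean level in CPM (log axis) of each gene per group, with dashes for the control level from each table that lists the gene and dots for the altered groups. Controls lie between 0.101 and 0.924 CPM and the listed altered groups between 4.43 and 42.2 CPM.

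Long transcripts collect more reads, so levels were also set per kb of the longest transcript (3946 bases for TDRD5, 8887 for TDRD6 and 5119 for RNF17). On that scale the knockout levels were 4.60 CPM per kb for TDRD5, 4.75 for TDRD6 and 2.56 for RNF17. These values carry no error of their own, and without the division by length the knockout levels of TDRD5 and TDRD6 were 18.2 and 42.2 CPM. In controls the levels per kb were 0.157 for TDRD5, 0.0120 for TDRD6 and 0.181 for RNF17 by the knockout table. The control level of TDRD6, near 0.1 CPM, is where the prior count of a count model can move a fold change, and with depth unknown this was not tested. With FLAG-TASOR2, TDRD5 was at 1.12 and TDRD6 at 1.03 CPM per kb.

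A member left out of a table may still have differed from controls. With a control level of 0.106 CPM, TDRD6 would need 3.89 CPM in the FLAG-TASOR cells, a log2 fold change of 5.20, before its mean reached the listing limit of 2 CPM. For RNF17, with 0.924 CPM in controls, the mean reaches the limit at 3.08 CPM, a log2 fold change of 1.73, with FLAG-TASOR or FLAG-TASOR2. Lower levels would be left out of the tables even if the libraries agreed closely, and higher ones could be left out by their p. The knockout level of TDRD6, 42.2 CPM, is above its limit, and that of RNF17, 13.1 CPM, is also above its limit.

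Whether other genes of the pathway were listed was counted over 6 lists with 116 genes besides the members. Over all genes tested, 1.92% were listed in the knockout, at most 1.87% with FLAG-TASOR and 6.31% with FLAG-TASOR2. At such shares few or no genes of a short list would be listed in any case. Whether each list gene was among those tested is not known. Of the other 8 germline Tudor genes, among them TDRD1, TDRD7, TDRD9 and STK31, 0 were listed in any table. Of a list of 24 genes, mostly Tudor genes with broader roles such as SND1 and the histone demethylase KDM4A, 0 were listed. Of 26 genes of the piRNA machinery, including the PIWI genes, the helicase DDX4 and MAEL, 0 were listed. Of 17 genes of the PRC1.6 repressor complex and of DNA methylation, which keep germline promoters silent in somatic cells, 0 were listed. Among the 33 genes of a meiosis and germ cell list, 1 was listed with FLAG-TASOR and 1 with FLAG-TASOR2. Genes outside that list were not counted, such as GCNA, lower in every comparison, and TSPYL6, higher in both knockout comparisons. TEX11, a meiotic gene, was the one listed with FLAG-TASOR, where the authors' deposited table gives -2.91 (approximate SE 0.88, adjusted p 0.999, edgeR-type F-test). SOHLH2, a germ cell transcription factor, was the one listed with FLAG-TASOR2, where the authors' deposited table gives 1.79 (approximate SE 0.49, adjusted p 0.248, edgeR-type F-test). Besides TASOR and TASOR2, no HUSH-list gene was listed. No gene of these lists (0 in all tables) had an adjusted p below 0.05, and a gene left out has no value, so these lists cannot be called unaltered.

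Markers of other cells were looked up beside the members. The 5 germ cell markers (DDX4, DAZL, MAEL, SYCP3 and PIWIL1), the 5 testis somatic markers, the 3 lymphoid markers and the 2 monocyte markers were absent from all tables. Of the 9 K-562 markers only HBZ, an embryonic globin gene, was listed, with FLAG-TASOR2. A table of changed genes cannot show the level of a marker that did not change, so the cell type was not checked further.

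No neighbour of a member was listed in either knockout comparison. Within 1 Mb of TDRD5, TDRD6 and RNF17 lie 16, 15 and 13 other protein-coding genes. In those windows 0 genes were listed in the knockout or FLAG-TASOR tables. Over all genes tested, the listed share was 1.92% in the knockout, at most 1.87% with FLAG-TASOR and 6.31% with FLAG-TASOR2. At such shares few or no genes of these windows would be listed in any case. With FLAG-TASOR2, the authors' deposited table gives SOAT1, a cholesterol acyltransferase gene 233 kb from TDRD5, -1.02 on the log2 scale (approximate SE 0.37, adjusted p 0.352, edgeR-type F-test). SPATA13, 457 kb from RNF17, was listed there at 3.49 (approximate SE 0.92, adjusted p 0.242) and C1QTNF9B, 861 kb away, at 2.46 (approximate SE 0.98, adjusted p 0.399), by the same F-test in the authors' deposited table. RNF17 itself was not listed in that comparison. TDRD6 overlaps 2 annotated genes on the minus strand, AL591242.1 by 291 bases at its start and PLA2G7 by 119 bases at its end. Neither was listed. The sources used here do not say if reads were counted by strand, so reads in those stretches cannot be assigned to TDRD6 alone. TDRD5 and RNF17 overlap no other annotated gene.

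Genes with the most similar fold changes were taken from those listed in exactly the same tables. Genes without a symbol, or taken to have a group at 0 counts, were left out, so nearer unnamed genes may exist. For TDRD5, over 3 comparisons and 23 candidates, they were NDN (3.08, 2.87 and 3.53 on the log2 scale), TFPI (4.86, 1.70 and 4.36) and ZNF418 (3.02, 1.94 and 1.67) in the authors' deposited tables, at Euclidean distances of 2.07, 2.43 and 2.55. For TDRD6, over 2 comparisons and 71 candidates, they were PLCB1, PCDHGA5 and PCDHGA4, at distances of 3.32, 4.54 and 4.91. PLCB1, the nearest, had log2 fold changes of 5.59 and 5.20 in the authors' deposited tables. For RNF17, over 1 comparison and 116 candidates, NELL2 (3.74), ADAMTS20 (4.27) and LINC00632 (3.31) were nearest in the authors' deposited table. With fold changes divided by their approximate SE, 0 of these 3 genes remained for each member, so the choice of likeness sets the names.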

How the data were processed

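Total RNA libraries of K-562 cells, 2 per group, were grouped from the labels. Tools named in the submitters' processing notes, without their roles, are STAR 2.7.8, Salmon, DESeq2 and edgeR, and the build is hg38. Per the file headers, the authors deposited a log2 fold change, a log2 mean CPM, an F score and a p-value before and after adjustment per gene, and these were used as deposited. Counts of single libraries are not in the tables, so nothing was refitted and depth is unknown. The number of genes tested was recovered as adjusted over unadjusted p of the top gene (within 0.001 of a whole number), or, for FLAG-TASOR, bounded by the highest row number. Total degrees of freedom (5.36, 5.34 and 6.01) were solved from F and p. Genes with 1 degree fewer (9, 8 and 14) were taken to have a group at 0 counts, and no fold is given for them. The recovery of the number of genes, the degrees of freedom and the implied group levels was run on simulated data. The reading of a group at 0 counts was not. Simulated F and p came from the distribution that was then solved, so that run checks only the calculation. For the implied levels, simulated libraries had equal size at a chosen depth, whereas depth here is unknown. Gene models came from GENCODE 29 (GRCh38) by Ensembl identifier, promoters from RefSeq by symbol (3 of 3 members matched). The members, lists and tests were chosen with earlier results of these data known. Named genes were the members, TASOR, TASOR2, listed genes of the lists (all if at most 6, otherwise the 4 of smallest p), up to 4 listed neighbours within 1 Mb and the 3 most similar genes per member. Python 3.11.15, scipy 1.17.1 and pandas 2.3.3 were used.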

Additional observations from a re-analysis of the deposited data

How the results depend on the processing

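No paired analysis was possible because the tables hold no value per library, and for the same reason no replicate could be left out. Taking the authors' listing (unadjusted p below 0.05) in place of an adjusted p below 0.05 moved the members called from 0 to 3 in the knockout, to 1 with FLAG-TASOR and to 2 with FLAG-TASOR2, while an adjusted p below 0.1 left all 3 counts at 0. The 6 approximate SEs kept their values when taken from p, as they must, because the degrees of freedom were solved from the same F and p. The 24 alternative implied levels, with 0.05 or 0.2 CPM taken off the mean, moved by less than the approximate SE of the fold change. The lowest mean was 2.57 CPM, for TDRD5 with FLAG-TASOR2, so a step of that size could not have moved them by more. That step rescales both groups and keeps the fold change, so it cannot show how a prior count moves a fold change. With the union of exons as length, the 6 levels per kb also moved by less than the approximate SE. The union of exons was chosen after seeing the data. The rank of RNF17 in the knockout moved from 19 to 12 with a log2 mean CPM of at least 2, and the other 8 alternative ranks stayed within 1.5 times. Of the planned promoter alternatives, only the CG count of TDRD5 moved by over 1.5 times, from 13 to 6. The limits are the 2 libraries per group, the shared controls and the unknown depth.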
